A study of Rattus norvegicus with 6 samples.

Results

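The BCL2 family and the target genes of p53 were examined in the vestibular sensory epithelium of rats under subchronic ototoxic exposure. The members were 10 genes chosen by symbol: the pro-survival genes Bcl2, Bcl2l1 and Mcl1, the pore effector Bax, the BH3-only genes Pmaip1 and Bbc3, and the p53 targets Cdkn1a, Mdm2, Fas and Tp53inp1. Of these, 8 were measured and tested, among 32883 genes in the count table and 14352 genes tested. The expression of Mcl1 and Bbc3 was not analysed here. RNA-seq counts came from 6 adult male Long-Evans rats, 3 of which were given 20 mM 3,3'-iminodipropionitrile (IDPN) in the drinking water for 4 weeks (IDPN-4wk) while 3 received plain water (control). IDPN is a nitrile toxic to the sensory hair cells (HCs) of the inner ear. Each library was a single rat, from which 2 utricles and 6 cristae were pooled, so it held HCs together with every other cell of the dissected tissue. The title prefix of the animals differs between the groups, and whatever it marks cannot be told apart from IDPN.

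In the mitochondrial pathway of apoptosis, the pro-survival proteins BCL2, BCL-XL (gene Bcl2l1) and MCL1 hold the effectors BAX and BAK in check. BH3-only proteins such as NOXA (Pmaip1) and PUMA (Bbc3) bind the pro-survival proteins and so release the effectors, which then permeabilise the outer mitochondrial membrane. The transcription factor p53 is induced by DNA damage and other stress and drives a shared set of targets. Among them are p21 (Cdkn1a), which arrests the cell cycle, MDM2, the ubiquitin ligase that degrades p53 itself, the death receptor FAS, and several BCL2 family genes. In the inner ear, these genes are best known from the acute loss of HCs after aminoglycosides and cisplatin.

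The promoter of Cdkn1a is shown because it was the only one among the members that held the DNA motif bound by p53. RefSeq gave windows of 300 bases, from 250 before to 50 after a transcription start, for 7 members: Bcl2, Bcl2l1, Cdkn1a, Fas, Mcl1, Mdm2 and Pmaip1. No window was found for Bax, Bbc3 and Tp53inp1. A p53 response element consists of a pair of decamers, and the windows were searched for the 10-base p53 decamer, which reads as the same motif on both strands. The Cdkn1a window lies at chr20:7150682-7150981 on the plus strand of build GRCr8, and capitals mark its decamer.
Cdkn1a: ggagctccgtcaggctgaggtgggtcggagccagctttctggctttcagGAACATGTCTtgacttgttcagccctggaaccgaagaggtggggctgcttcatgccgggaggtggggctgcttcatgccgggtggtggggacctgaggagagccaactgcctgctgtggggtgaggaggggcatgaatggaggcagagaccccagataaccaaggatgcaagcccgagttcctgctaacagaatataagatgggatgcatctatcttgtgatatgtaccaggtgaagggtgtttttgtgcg
The 10 bases right after the decamer matched the same motif at 9 of 10 positions. A decamer was present in 7.98% of all 33469 windows. Of 35 further p53 target genes with a window, 8 held a decamer (22.9%), against 8.57% of all 27457 genes with a window. Examples are the following decamers.
Aen, at chr1:142224503-142224512 on the plus strand: GGGCATGTCC
Ei24, at chr8:44699441-44699450 on the minus strand: GGGCATGCCC
Pml, at chr8:67555107-67555116 on the minus strand: GGGCTTGTTT
A match of this kind is a property of the sequence and was not tested for binding.

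The first question was whether genes of the intrinsic death pathway or of the p53 response changed in the IDPN-4wk group. Of the 8 members tested, 1 was downregulated, Tp53inp1, and 0 were upregulated at an edgeR Benjamini-Hochberg adjusted p (Padj) under 0.05 with a fold change over 1.5. Across all 14352 genes, 6.62% were downregulated and 3.09% upregulated by the same rule, 9.71% in either direction. At an unadjusted p under 0.05, 1 member was lower and 3 were higher, as were 17.4% and 15.6% of all genes tested. DESeq2 called 1 member upregulated, Cdkn1a, and limma-voom called 0, while both tools called Tp53inp1 downregulated. The 7 members other than Tp53inp1 had positive log2-Fold changes, and 52.8% of all genes tested did. The median log2-Fold change of the 8 members was 0.38, beside 0.02 over all genes tested.

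The libraries held from 13358678 to 18561991 counts, so that 3 counts corresponded to between 0.155 and 0.216 counts per 1000000 (CPM, scaled with TMM). Fas and Pmaip1 were the members with the fewest counts. The summed level of 10 HC markers ran from 2169.5 to 2312 CPM in control and from 1157 to 1488 CPM in IDPN-4wk libraries, and all 10 had negative log2-Fold changes, with 6 downregulated (Myo7a, Otof, Calb2, Atoh1, Tmc1 and Cdh23). Fewer HCs and less RNA per HC cannot be told apart in these libraries. The summed level of 10 supporting cell markers was also lower, from 10622 to 11681 CPM in control and from 5909 to 7237 CPM in IDPN-4wk libraries, and 8 of the 10 had negative log2-Fold changes, with 4 downregulated (Otog, Otogl, Tectb and Gjb6). Lymphocyte and granulocyte markers were near 0, at a sum of at most 2.90 CPM for 8 genes in any library, with Cd79a, listed under its RefSeq synonym Cd79al, at 0 in all 6. Schwann cell markers summed to between 8595 and 10821 CPM in control and between 5805 and 8713 CPM in IDPN-4wk libraries, and 7 of 8 had negative log2-Fold changes, with 2 downregulated (Pmp22 and Gldn). The summed level of 5 skeletal muscle markers was higher, between 6.72 and 10.8 CPM in control and between 40.7 and 71.8 CPM in IDPN-4wk libraries. Almost all of it was Myh4, which was upregulated, from at most 10.6 CPM in control to at least 40.5 CPM in IDPN-4wk libraries. Of the others, Acta1, Tnnt3 and Mb were at or below 0.349 CPM in every library and Ckm was at 0, and these were not tested. Of 7 neuron markers, Snap25 and Rbfox3 were downregulated and Nefh and Prph upregulated. Of 8 stroma markers, Lum was downregulated and Col1a1 upregulated. Of 4 endothelium markers, 0 were called by edgeR, DESeq2 or limma-voom, and 2 were lower at an unadjusted edgeR p under 0.05, beside 17.4% of all genes tested. Some of these marker calls rested on single libraries. The call of Atoh1 was kept only without control replicate 1 and lost in the other 5 fits with a library left out (edgeR Padj up to 0.126). That of Myo7a fell under the fold threshold without control replicate 2 (-0.58) and with library size alone (-0.53). Pmp22 lost its call without control replicate 1 or 3 or IDPN-4wk replicate 2 (-0.43), with upper quartile scaling (-0.55) and with library size alone (-0.48), and Nefh without control replicate 2 or 3 or IDPN-4wk replicate 2 (edgeR Padj up to 0.0969). The part of cell composition in the results on the members was not tested.

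**Figure D1:**
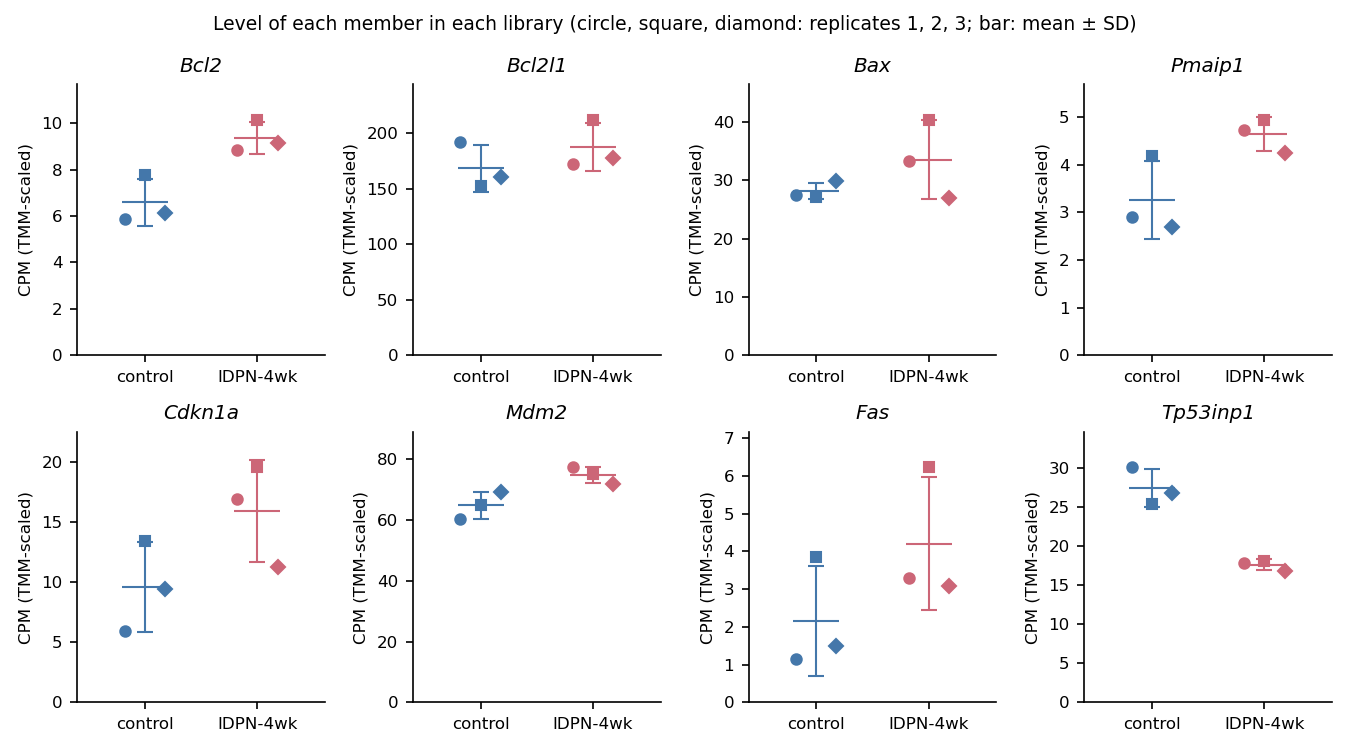
Level of each of the 8 members in every library, in CPM after TMM scaling, with circles, squares and diamonds for replicates 1, 2 and 3 and a bar for the mean ± SD of 3 rats. Control and IDPN-4wk libraries are apart for Tp53inp1 (lower), and for Bcl2, Pmaip1 and Mdm2 (higher), and overlap for the other members. Over all genes tested, they are apart for 19.3% in the lower and 18.5% in the higher direction.

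Tp53inp1 (ENSRNOG00000007964) encodes a stress-induced protein that enhances p53 activity and takes part in autophagy. It was at 30.1, 25.4 and 26.8 CPM in control and at 17.9, 18.1 and 16.9 CPM in IDPN-4wk libraries. The groups did not overlap, and the 3 IDPN-4wk libraries lay close together. The mean fell to 64.3% of control, from 27.4 ± 2.45 to 17.6 ± 0.682 CPM (SD over 3 rats), and the log2-Fold change was -0.64 with an SE of 0.11 (edgeR Padj 0.00329). The 95% interval of the log2-Fold change was from -0.89 to -0.38, so it reached above the 1.5-fold threshold at -0.58. Without control replicate 1, the highest of the controls, the log2-Fold change was -0.56 and under that threshold, at edgeR Padj 0.0159. Over the 6 fits that left out a library it was from -0.69 to -0.56, with edgeR Padj from 0.00768 to 0.0159. With library size alone it was -0.53 (edgeR Padj 0.00863), also under the fold threshold. The call was lost with glmTreat too, which tests against that threshold itself.

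The genes whose pattern over the 6 libraries was most like that of Tp53inp1 were AABR07070310.1, Mcm7 and AABR07039104.1. Their Pearson correlations of log2 CPM with Tp53inp1 were 0.996, 0.995 and 0.994. Correlations above 0.9 were found for 758 genes. Tp53inp1 differs between the groups and the correlation includes that difference, so the likeness is a description.

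Cdkn1a (ENSRNOG00000000521), the gene of the cell cycle inhibitor p21, was at 5.94, 13.4 and 9.41 CPM in control and at 17.0, 19.6 and 11.3 CPM in IDPN-4wk libraries. The lowest IDPN-4wk library lay below the highest control, so the groups overlapped. The log2-Fold change was 0.74 (SE 0.28, 95% interval 0.13 to 1.35). It was past the fold threshold but missed the adjusted p, at edgeR Padj 0.0883. Leaving out control replicate 2 gave 1.06 (edgeR Padj 0.0335) and leaving out IDPN-4wk replicate 3 gave 0.93 (edgeR Padj 0.0340), both past both thresholds. Leaving out control replicate 1 gave 0.48 (edgeR Padj 0.227), so the size of the difference rested on single libraries. DESeq2 put it past the thresholds (log2-Fold change 0.73, Padj 0.0298). Over the alternatives without a library left out the adjusted p was 1.00 with glmTreat, which tests against the fold threshold itself. In the others it was from 0.0298 to 0.0913.

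Mdm2 (ENSRNOG00000006304) closes the negative feedback loop on p53. It stood at 60.3, 65.0 and 69.2 CPM in control and at 77.4, 75.1 and 71.9 CPM in IDPN-4wk libraries. All IDPN-4wk libraries were above all controls, by a small margin. The log2-Fold change was 0.21 (SE 0.08, 95% interval 0.03 to 0.38, edgeR Padj 0.0964), and the interval lay within the 1.5-fold threshold of 0.58.

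Fas (ENSRNOG00000019142), the receptor of FAS ligand, was the least abundant member, with 18, 55 and 21 counts in control and 46, 121 and 48 counts in IDPN-4wk libraries. These counts were 1.16, 3.84 and 1.49 CPM against 3.30, 6.24 and 3.09 CPM. Replicate 2 stood above the others in each group, and control replicate 2 exceeded 2 of the IDPN-4wk libraries. The log2-Fold change of 0.98, with an SE of 0.45, had a 95% interval from -0.02 to 1.97 and an edgeR Padj of 0.161. Without control replicate 2 it was 1.68 (edgeR Padj 0.0318), and without IDPN-4wk replicate 2 it was 0.57 (edgeR Padj 0.488). Reads of overlapping genes were not separated by strand, and in RefSeq other loci overlap Fas (LOC120100158), Bcl2 (LOC120096229 and LOC134481474) and Bcl2l1 (Rps2-ps43).

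**Figure D2:**
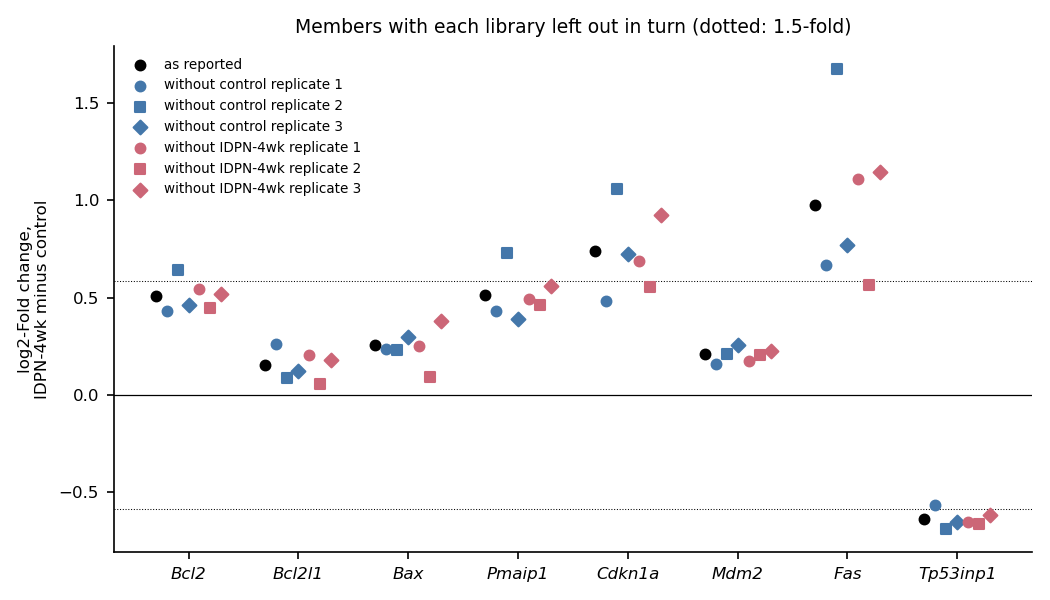
Log2-Fold change of each member with all 6 libraries (black) and with a single library removed (blue for a control, red for an IDPN-4wk library), with the 1.5-fold threshold dotted. Fas spans 0.57 to 1.68 and Cdkn1a 0.48 to 1.06, while Tp53inp1 stays between -0.69 and -0.56 and Mdm2 between 0.16 and 0.26.

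Among the pro-survival genes, Bcl2 (ENSRNOG00000002791), the founding member of the family, was at 5.87, 7.75 and 6.15 CPM in control and at 8.84, 10.2 and 9.14 CPM in IDPN-4wk libraries. Every IDPN-4wk library was above every control. Its log2-Fold change of 0.51 (SE 0.18, 95% interval 0.10 to 0.92) passed neither the fold threshold nor the adjusted p, at edgeR Padj 0.0771. The value was from 0.43 to 0.64 over the fits that left out a library. With library size alone it was 0.62 and past both thresholds (edgeR Padj 0.0310). Bcl2l1 (ENSRNOG00000007946), which encodes BCL-XL, was at 192, 152 and 160 CPM in control and at 172, 212 and 178 CPM in IDPN-4wk libraries, with overlapping groups. The log2-Fold change of Bcl2l1 was 0.16 (SE 0.11, edgeR Padj 0.344), and its 95% interval from -0.08 to 0.39 lay within the 1.5-fold threshold. It was 0.05 without IDPN-4wk replicate 2 and 0.26 without control replicate 1.

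Of the 3 pro-survival genes tested, 0 passed both thresholds by edgeR, DESeq2 or limma-voom. At an unadjusted edgeR p under 0.05, 1 was higher, Bcl2, beside 15.6% of all genes tested. For the remaining gene tested, Bcl2l2 (BCL-W), the log2-Fold change was 0.11 at an edgeR Padj of 0.471. Bcl2a1 and Bcl2l10 averaged 0.412 and 0.135 CPM in control and were removed by the filter on low counts.

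The effector Bax (ENSRNOG00000020876) was at 27.6, 27.2 and 29.8 CPM in control and at 33.4, 40.4 and 27.0 CPM in IDPN-4wk libraries. The controls were close together, whereas the IDPN-4wk libraries reached from below the lowest control to well above the highest. The log2-Fold change was 0.25 (SE 0.14, 95% interval -0.06 to 0.56, edgeR Padj 0.239), with 0.09 without IDPN-4wk replicate 2 and 0.38 when IDPN-4wk replicate 3 was left out. The other effectors were Bak1, with a log2-Fold change of 0.39 (edgeR Padj 0.0905), and Bok, with -0.06 (edgeR Padj 0.816). The sign of Bok turned when libraries were scaled by their total alone and when control replicate 2 was left out. The 3 effectors gave 0 calls by edgeR, DESeq2 or limma-voom. At an unadjusted edgeR p under 0.05, 1 was higher, Bak1, beside 15.6% of all genes tested.

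Pmaip1 (ENSRNOG00000018770), which encodes the BH3-only protein NOXA, was at 2.90, 4.19 and 2.69 CPM in control and at 4.74, 4.95 and 4.25 CPM in IDPN-4wk libraries. The groups did not overlap, although control replicate 2 was only just below IDPN-4wk replicate 3. The log2-Fold change was 0.51 (SE 0.26, 95% interval -0.06 to 1.08, edgeR Padj 0.199), resting on 38 to 60 counts per control library and 66 to 96 per IDPN-4wk library. In the list of 8 BH3-only genes, 6 were tested and 0 passed both thresholds by edgeR, DESeq2 or limma-voom. At an unadjusted edgeR p under 0.05, 1 was lower, Bad, beside 17.4% of all genes tested. Log2-Fold changes were 0.64 for Bid (edgeR Padj 0.159), 0.47 for Bmf (0.261), -0.07 for Bcl2l11 (0.694), -0.12 for Bik (0.736) and -0.31 for Bad (0.0895). Bcl2l11 encodes BIM, Bid links death receptors to mitochondria, and Bad is controlled by growth factor kinases.

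Over the whole family, 17 of 23 genes listed were tested, 12 with positive and 5 with negative log2-Fold changes, and the median was 0.16. Across all genes tested, 52.8% had positive log2-Fold changes, and 3.09% were upregulated and 6.62% downregulated. The 1 family gene past both thresholds was Bcl2l14 (ENSRNOG00000028632), also called BCL-G. It was at 27.9, 19.3 and 25.0 CPM in control and 37.0, 37.4 and 44.8 CPM in IDPN-4wk libraries. It rose without overlap between the groups, by 0.72 on the log2 scale with an SE of 0.14 (edgeR Padj 0.00538). Without control replicate 2 the log2-Fold change of Bcl2l14 was 0.58, just under the threshold, with edgeR Padj 0.0181. Log2-Fold changes were 0.62 for Bcl2l12 (edgeR Padj 0.134), -0.25 for Bnip3, a mitophagy receptor (0.0533), and 0.06 for its relative Bnip3l (0.575). In RefSeq, Bcl2l12 overlaps Irf3, Bcl2l11 overlaps Acoxl and Bak1 overlaps LOC120098811. IDPN-4wk and control were fully separated in 7 family genes in the higher direction and in 2 in the lower, where 18.5% and 19.3% of all genes tested were. An unadjusted edgeR p under 0.05 was reached by 4 family genes upwards and 2 downwards, of 17, beside 15.6% and 17.4% of all genes tested.

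**Figure D3:**
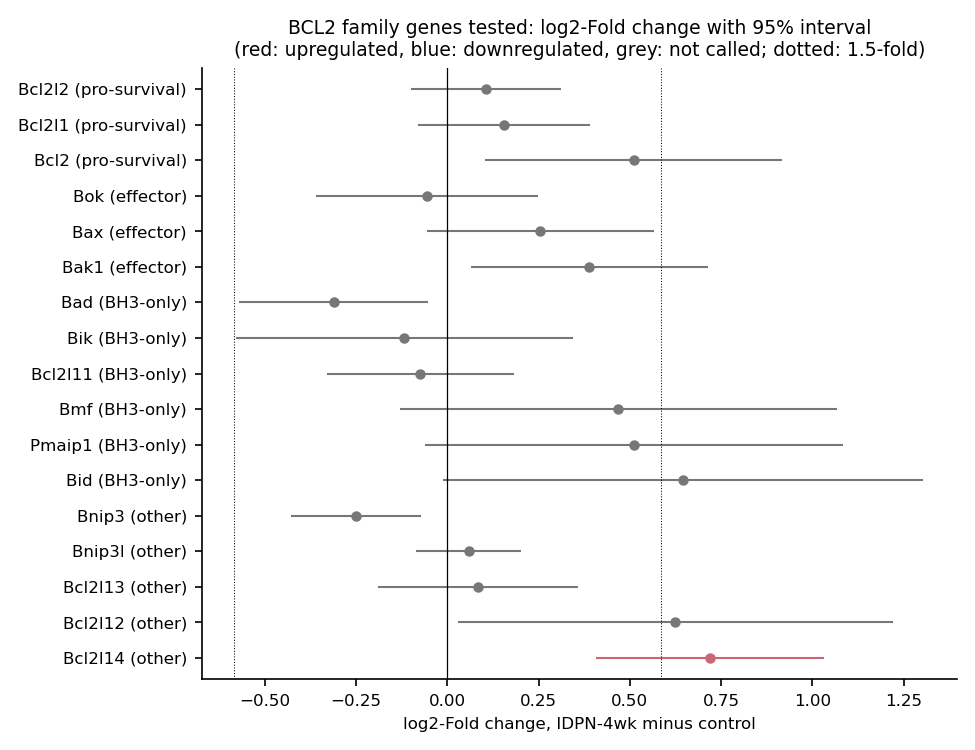
Log2-Fold change, IDPN-4wk minus control, with its 95% interval for the 17 BCL2 family genes tested, ordered by role. Bcl2l14 is the only gene past both thresholds, at 0.72. The intervals of Bcl2l1, Bcl2l2, Bok, Bax, Bcl2l11, Bad, Bik, Bcl2l13, Bnip3 and Bnip3l lie within the dotted 1.5-fold lines.

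The balance between Bax and the pro-survival genes was compared as the log2 ratio of their CPM within a library, which no scaling of libraries affects. Gene lengths were not divided out, so differences between groups can be read and the ratio itself cannot. The log2 ratio of Bax to Bcl2 was 2.23, 1.81 and 2.28 in control and 1.92, 1.99 and 1.56 in IDPN-4wk libraries. It differed by -0.28 between the group means, with overlapping groups (two-sided exact permutation p = 0.30, adjusted 0.50). The difference was -0.15 without IDPN-4wk replicate 3 and -0.43 without control replicate 2. The log2 ratio of Bax to Bcl2l1 was -2.80, -2.48 and -2.43 in control and -2.36, -2.39 and -2.72 in IDPN-4wk libraries. This difference was 0.08 (exact permutation p = 0.50, adjusted 0.50 over the 2 ratios). With 3 against 3 libraries the smallest p this test allows is 0.10.

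**Figure D4:**
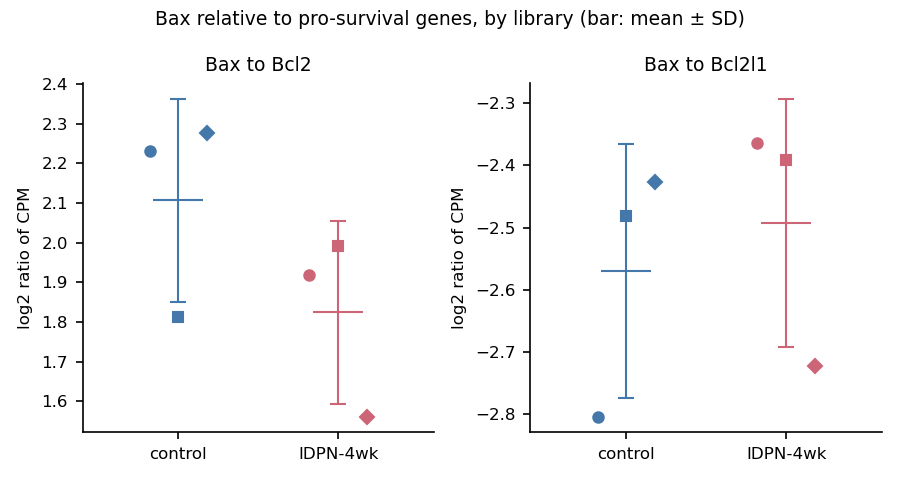
Log2 ratio of the CPM of Bax to that of Bcl2 (left) and of Bcl2l1 (right) in each library, with circles, squares and diamonds for replicates 1, 2 and 3 and a bar for the mean ± SD of 3 rats. Control and IDPN-4wk libraries overlap in both ratios, which differ between the group means by -0.28 and 0.08.

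Downstream of the pore, the 6 apoptosome and mitochondrial factors had log2-Fold changes from 0.08 to 0.28 with a median of 0.14. None passed both thresholds by edgeR, DESeq2 or limma-voom (0 genes). At an unadjusted edgeR p under 0.05, 1 was higher, Diablo, beside 15.6% of all genes tested. Diablo, an antagonist of inhibitors of apoptosis, had the value of 0.28 (edgeR Padj 0.0728), and Cycs, the gene of cytochrome c, 0.11 (edgeR Padj 0.419).

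The extrinsic arm was read from a list of death receptor genes, which held partners of Fas and genes of other death receptors. Of 6 genes tested, 1 passed both thresholds upwards, beside 3.09% of all genes tested: Tnfrsf1a (ENSRNOG00000031312), the TNF receptor, at 52.9, 61.6 and 56.4 CPM in control and at 89.7, 97.8 and 70.7 CPM in IDPN-4wk libraries. It rose by 0.60 on the log2 scale with an SE of 0.12 (edgeR Padj 0.00524). Its fold change was at the threshold and fell under it without control replicate 1 (0.55), IDPN-4wk replicate 1 (0.56) or IDPN-4wk replicate 2 (0.49). For Ripk1, a kinase of the same receptor complex, the value was 0.20 (edgeR Padj 0.159). The other 4 genes tested had negative log2-Fold changes, and the median of the list was -0.08. The Fas partners Fadd and Casp8, also named after their values were seen, were at -0.0051 (edgeR Padj 0.983) and -0.16 (edgeR Padj 0.716). The lowest, named after their values were seen, were Tnfsf10, which encodes the death ligand TRAIL, at -0.31 (edgeR Padj 0.325) and Cflar, the gene of the caspase-8 inhibitor FLIP, at -0.25 (edgeR Padj 0.0779), with all 3 IDPN-4wk libraries of Cflar below the controls. In RefSeq, Cflar overlaps Casp8 of the same list and LOC100909946, and Ripk1 overlaps Serpinb6a. The gene of FAS ligand, Faslg, averaged 0.113 CPM in control, with 0 counts in the IDPN-4wk libraries, which allows up to 0.216 CPM.

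Upstream, of 11 genes tested among relatives and regulators of p53, 1 was upregulated and 0 were downregulated, beside 3.09% and 6.62% of all genes tested. DESeq2 and limma-voom also called 1 upregulated and 0 downregulated, and at an unadjusted edgeR p under 0.05 there were 2 higher and 2 lower, beside 15.6% and 17.4% of all genes tested. The upregulated gene was Chek2 (ENSRNOG00000037509), a kinase that phosphorylates p53 after DNA breaks, at 1.36, 2.37 and 2.26 CPM in control and 5.03, 4.17 and 5.08 CPM in IDPN-4wk libraries. The rise was 1.25 on the log2 scale with an SE of 0.29 (edgeR Padj 0.0130). Chek1, the related kinase of the replication checkpoint, passed the adjusted p in the other direction (log2-Fold change -0.30, edgeR Padj 0.0234), and so did Usp7, a deubiquitinase of MDM2 and p53, upwards (0.40, edgeR Padj 0.0260). Usp7 was named after its value was seen. With a library left out, edgeR Padj reached 0.0819 for Chek1, which lost its pass without control replicate 2 or 3 or IDPN-4wk replicate 2, and 0.0874 for Usp7, which lost it without control replicate 1 or 2 or IDPN-4wk replicate 1 or 3.

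A list of 40 further p53 target genes was followed to see whether they moved together. Of 36 tested, 2 were upregulated and 2 downregulated, beside 3.09% and 6.62% of all genes tested. Positive log2-Fold changes were found for 25, beside 52.8% of all genes tested. The median of the list was 0.13, beside 0.02 over all genes tested. By adjusted p alone, 6 were higher and 4 lower, beside 7.89% and 11.5% of all genes tested (19.4% in either direction). At an unadjusted edgeR p under 0.05, 11 were higher and 4 lower, beside 15.6% and 17.4%. The groups were fully separated in 13 genes upwards and 6 downwards, beside 18.5% and 19.3%.

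The downregulated targets were Fbxw7 and Plk2. Fbxw7 (ENSRNOG00000010889), the substrate receptor of an SCF ubiquitin ligase, was at 33.6, 29.2 and 33.7 CPM in control and at 7.26, 5.88 and 10.3 CPM in IDPN-4wk libraries. Its log2-Fold change of -2.05, with an SE of 0.18, was the lowest of the list (edgeR Padj 5.44e-05). Fbxw7 is also among the genes that the study names as selective for HCs, whose summed markers were lower in the same libraries, and in RefSeq Dear overlaps it. Plk2 (ENSRNOG00000011951), a polo-like kinase, was at 41.7, 44.9 and 43.9 CPM in control and at 24.4, 23.9 and 26.4 CPM in IDPN-4wk libraries. It fell by 0.81 on the log2 scale with an SE of 0.095 (edgeR Padj 2.60e-04).

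The upregulated targets were Traf4 and Pml. Traf4 (ENSRNOG00000013169), an adaptor of the TRAF family, was at 10.9, 10.8 and 10.9 CPM in control and at 18.2, 16.9 and 16.3 CPM in IDPN-4wk libraries, and rose by 0.66 on the log2 scale with an SE of 0.13 (edgeR Padj 0.00510). Pml (ENSRNOG00000008400), the organiser of nuclear bodies, is also an interferon-stimulated gene. It was at 33.7, 32.2 and 32.3 CPM in control and at 47.9, 63.0 and 40.1 CPM in IDPN-4wk libraries, a rise of 0.62 with an SE of 0.14 (edgeR Padj 0.0126). Without IDPN-4wk replicate 2, where it was highest, the log2-Fold change of Pml was 0.42, under the threshold.

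Other targets past the adjusted p but not the fold change, named after their values were seen, were Epha2, Aen, Sesn2 and Xpc upwards and Btg2 and Sesn1 downwards. The log2-Fold changes were 0.56 for Epha2, an ephrin receptor, 0.43 for Aen, an apoptosis-enhancing nuclease, 0.40 for Sesn2 and 0.33 for Xpc, a DNA damage sensor. They were -0.34 for Btg2, an antiproliferative gene, and -0.26 for Sesn1. The sestrins Sesn1 and Sesn2 thus had opposite signs. Of these 6 genes, Btg2 kept its adjusted p under 0.05 with any library left out (edgeR Padj up to 0.0393). The others lost it, with edgeR Padj up to 0.176 for Epha2, 0.160 for Sesn1, 0.122 for Aen, 0.115 for Sesn2 and 0.0774 for Xpc. For Epha2 this held for any library. Sesn1 kept it only without IDPN-4wk replicate 3, and Aen and Sesn2 only without control replicate 3 or IDPN-4wk replicate 3. Xpc lost it without control replicate 3 or IDPN-4wk replicate 1. Epha2 passed both thresholds with upper quartile scaling (0.59, edgeR Padj 0.0375) and with library size alone (0.66, edgeR Padj 0.0196). Plk3, another polo-like kinase also named after its values were seen, was at 0.85 and missed the adjusted p (edgeR Padj 0.0525). It passed both thresholds with upper quartile scaling (edgeR Padj 0.0438), library size alone (0.0272), a mean count of at least 50 (0.0408) and without IDPN-4wk replicate 3 (0.0497), and reached an edgeR Padj of 0.194 without IDPN-4wk replicate 2. Other overlaps in RefSeq are those of Plk3 with Dynlt4, Diablo with B3gnt4, Usp7 with LOC108352056 and Sesn2 with LOC134487007.

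**Figure D5:**
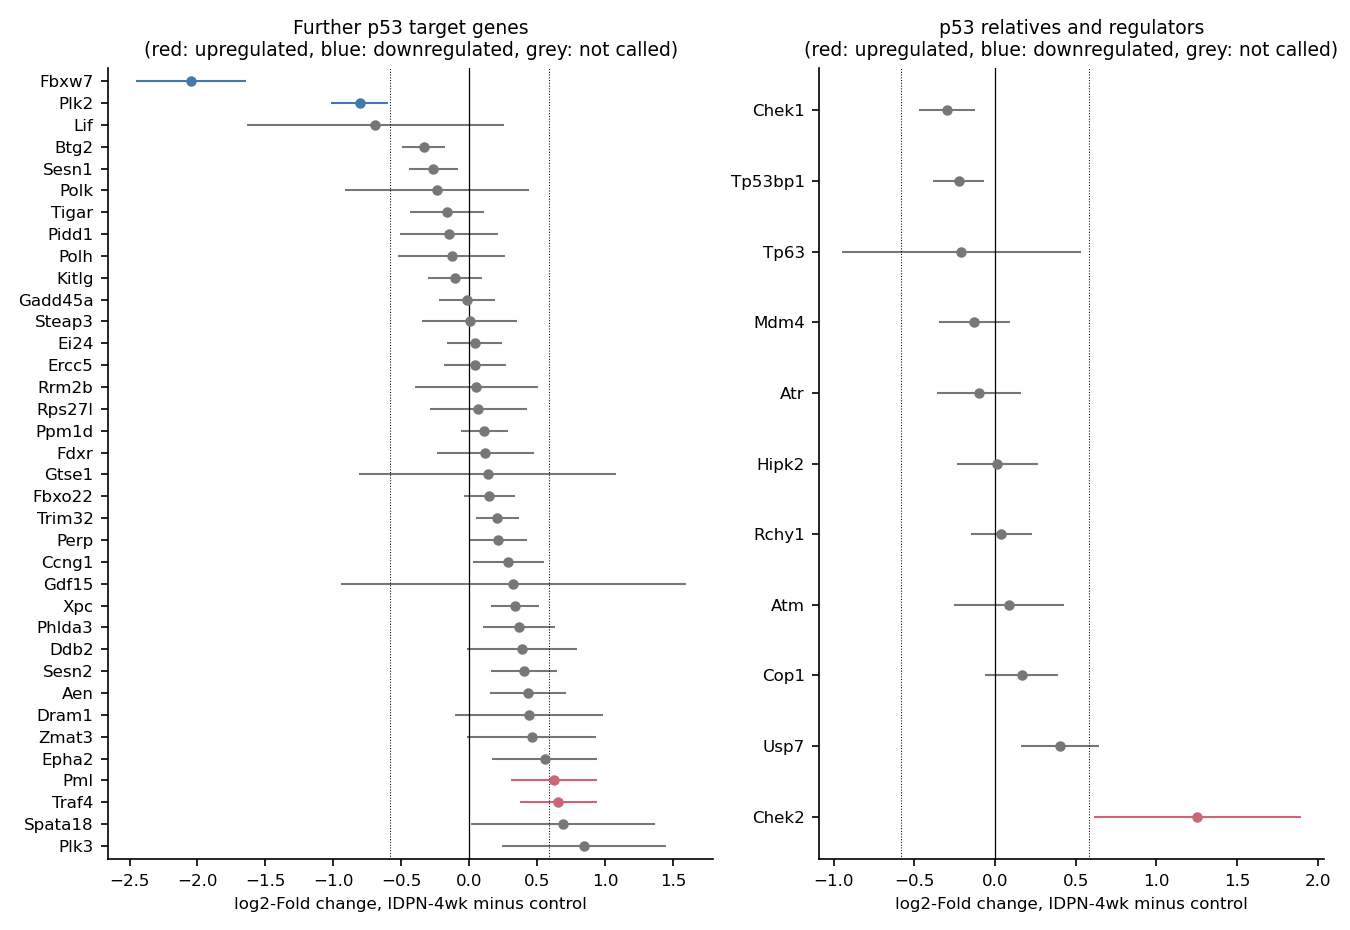
Log2-Fold change, IDPN-4wk minus control, with its 95% interval for 36 further p53 target genes (left) and for 11 relatives and regulators of p53 (right), in order of value, with the 1.5-fold threshold dotted. Fbxw7 at -2.05 and Plk2 at -0.81 are downregulated, Traf4, Pml and Chek2 are upregulated, and most other intervals cross 0.

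Cdkn1a was also set beside the other inhibitors of cyclin-dependent kinases. Of 4 tested, 0 passed both thresholds by edgeR, DESeq2 or limma-voom, and 1 was higher at an unadjusted edgeR p under 0.05, beside 15.6% of all genes tested. This was Cdkn2b (log2-Fold change 0.93, edgeR Padj 0.0940). Cdkn1c (p57) was at -0.14 and Cdkn1b (p27) at 0.10. Cdkn2a, which encodes ARF, an inhibitor of MDM2, had 0 counts in all 6 libraries, which allows at most 0.216 CPM in a library.

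Among the IDPN-4wk libraries, replicate 2 was the highest for 7 of the 8 members and replicate 3 the lowest for 6. Over all genes tested, replicate 2 was the highest of the 3 for 34.8% and replicate 3 the lowest for 35.1%. Replicate 2 had the most counts and the largest sum of 4 red blood cell markers, at 221 CPM, beside 150 and 111 CPM in IDPN-4wk replicates 1 and 3 and from 95.2 to 114 CPM in control. Its sum of 9 macrophage markers was the smallest of all libraries, at 77.3 CPM, beside 146 and 103 CPM in the other IDPN-4wk libraries and from 111 to 164 CPM in control. By edgeR, Hbb and C1qb were upregulated and Cd74 was downregulated in the IDPN-4wk group, while DESeq2 and limma-voom did not call Hbb (Padj 0.112 and 0.0530). The call of Hbb was kept only without IDPN-4wk replicate 3 and lost in the other 5 fits with a library left out, at 0.35 on the log2 scale without IDPN-4wk replicate 2. C1qb lost its call without control replicate 3 (0.53) or IDPN-4wk replicate 1 (0.52). The part of blood and macrophage RNA in the levels of the members was not tested.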

How the data were processed

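SMART-seq2 libraries of 6 rats were sequenced in paired-end mode. Reads were mapped by the authors to Rnor6.0 with STAR (2.5.3a in the submitters' processing notes), and genes were quantified with RSEM (1.3.0 there). The deposited values are expected counts and were whole numbers in the file. RSEM shares reads among similar genes.

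Members and gene lists were chosen with earlier results of these data known. After filterByExpr (at least 10 counts, at least 15 in total), which kept 99.9% of counts, and TMM scaling, 14352 genes were tested by quasi-likelihood in edgeR 4.0.16 (R 4.3.3) with Benjamini-Hochberg adjustment. A call required Padj under 0.05 and a fold change over 1.5. DESeq2 1.42.0, limma 3.58.1, glmTreat, other scalings and filters, and leaving out each library were alternatives. Only the main edgeR fit with its call rule was tested on simulated data.

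The rule for naming genes took the members, the genes of each list past both thresholds and, where fewer than 2 were, its most abundant ones. It also took the 3 genes most correlated with a called member. Bak1, Bid, Bik, Bmf, Bcl2l12, Bnip3, Diablo, Cdkn2b and the genes at 0 or under the filter were named after their values were seen. Replicates were numbered in accession order, and all libraries carry a single batch label. RefSeq (GRCr8) gave promoters, neighbours and synonyms only, and Cop1 was read from the row Rfwd2. A gene of the list of p53 relatives and regulators is not reported here. The planned ratio of Bax to Mcl1 was not computed. PCR reads carry no molecular identifiers, so limits from a count of 0 cover counting error only.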

Additional observations from a re-analysis of the deposited data

How the results depend on the processing

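The 8 members kept the sign of their log2-Fold change in all 13 alternatives that estimated it anew. The other two, glmTreat and adjusted p alone, reuse the reported value. Over all 15, 111 of 120 values kept their call. The count of downregulated members, 1, was 0 with library size alone and with glmTreat, which tests against the fold threshold itself, and 0 to 1 with a library left out (0 without control replicate 1). The count of upregulated members, 0, was 2 with library size alone (Bcl2 and Cdkn1a), 1 with DESeq2 (Cdkn1a), and 0 to 2 with a library left out. The 2 were Cdkn1a and Fas without control replicate 2. Library size alone moved the median of all genes by 0.11 on the log2 scale. Relative to that median, Tp53inp1 was at -0.66 and Cdkn1a at 0.72 under both scalings. For all genes, 950 downregulated and 444 upregulated (68.1% downregulated) became 780 and 762 with library size alone (50.6%), 354 and 99 with glmTreat (78.1%), and 1646 and 1132 by adjusted p alone (59.3%). With a library left out they were 768 to 1095 and 317 to 486. With a library left out, the difference in the log2 ratio of Bax to Bcl2l1 was -0.039 to 0.19, negative only without control replicate 1. That of Bax to Bcl2 was -0.43 to -0.15. Of the called BCL2 family, p53 and death receptor genes beyond the members, Fbxw7 kept its call with glmTreat, and Chek2 (Padj 0.147), Plk2 (0.118), Bcl2l14 (0.755), Traf4, Pml and Tnfrsf1a (1.00 each) lost theirs. Signs also turned for Bok (0.054 with library size alone, -0.17 to 0.062 with a library left out), Bcl2l11 (0.035 with library size alone), Cdkn1b (-0.00032 to 0.20 with a library left out) and Bik (-0.23 to 0.0042 with a library left out). The causes were not tested. No paired analysis was possible because the labels carry no replicate numbers. At 3 rats a group, the 95% intervals of Fas, Pmaip1 and Cdkn1a span more than 1 log2 unit.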
